A study of Danio rerio with 10 samples.

Results

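Maternal transcripts that zebrafish embryos still held at the dome stage and had largely lost by the shield stage were examined, 251 of the 16383 transcripts in the count table. Maternal here means present from the 64-cell stage on. Whether the RNA seen at later stages was the same maternal store was not tested. Members were chosen from their levels in CPM (a transcript's count scaled to a library total of 1000000). A member had at least 10 CPM in all 6 libraries of the 64-cell, 256-cell and 1000-cell stages, here called early. Its CPM in both dome libraries was at least 0.5 times the mean of those 6, and in both shield libraries at most 0.125 times that mean. Of the 16383 transcripts, 3940 met the early criterion, 3406 of these also met the dome criterion, and 251 of these (7.37%) met the shield criterion. The fall at shield and the hold at dome are therefore what chose the members, and are described without a test. All 251 members passed the filter on low counts, which left 9568 transcripts in the tests.

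RNA came from pools of wild-type AB-strain zebrafish (Danio rerio) embryos with the chorion removed, and no group carried a mutation or drug treatment. The groups were nuclear and cytosolic RNA at 5 stages, 10 libraries in all and 1 for each combination. In order these stages were 64-cell, then 256-cell and 1000-cell embryos, followed by dome and lastly shield. Embryos at 64-cell to 1000-cell are dividing from cleavage into the early blastula. Dome embryos are late blastulae, and shield embryos have begun gastrulation. The nuclear fraction was the washed pellet of broken embryos and the cytosolic fraction the supernatant, and the yolk was broken in the same buffer. The files do not pair the Ensembl transcript IDs with gene names, and 0 of the 16383 IDs were found in the gene tables used here. Members are named by ID, no role can be given for any of them, and neither fraction nor stage could be checked against marker genes.

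An egg is loaded with maternal mRNA that directs the first cell divisions while the embryo's own genome is largely silent. During the maternal-to-zygotic transition this RNA is removed in overlapping waves. Some decay depends only on maternal proteins, and some needs products of the newly active zygotic genome, among them microRNAs that recruit deadenylases to maternal mRNA. Transcripts that outlast the blastula and go during gastrulation are usually set against those lost earlier.

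Total counts per library ran from 5909037 to 14311969. At these depths 3 counts, taken as the smallest level a library can show, were 0.210 to 0.508 CPM. The lowest count of any member in any library up to dome was 71, so counting error was small there, while at shield many members had few counts. The TMM factor of the cytosolic shield library was 0.714 and those of the remaining libraries lay between 0.998 and 1.10, so the choice of scaling moves values at shield more than at other stages. CPM is a share of a library's counts, so it does not give the number of molecules per embryo. In such pooled samples, fewer cells of a type and less RNA per cell cannot be told apart.

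The members together held a steady share of the counts over the early stages and almost none of it at shield. In order of stage, they made up 5.22, 4.89, 4.84, 3.52 (95% Wilson interval 3.51 to 3.53%) and 0.265% (0.261 to 0.269%) of all counts in the nuclear libraries. In the cytosolic libraries the shares in the same order were 5.28, 5.25, 5.50, 4.04 (4.03 to 4.06%) and 0.356% (0.352 to 0.360%). These intervals cover counting error only, since reads without molecular identifiers are not independent molecules. By library totals the share was lower in the nuclear than in the cytosolic library at each of the 5 stages. At 64-cell the gap was small, and after TMM scaling 57.0% of members were higher in the nuclear library there. The 3155 transcripts that met every criterion but the one at shield are called the retained transcripts here. They held 72.3 to 82.5% of the counts in every library, shield included. The name means only that they missed the shield limit. Their ratio of mean shield to mean early CPM ran from 0.064 to 95.3, so some fell and some rose strongly.

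**Figure D1:**
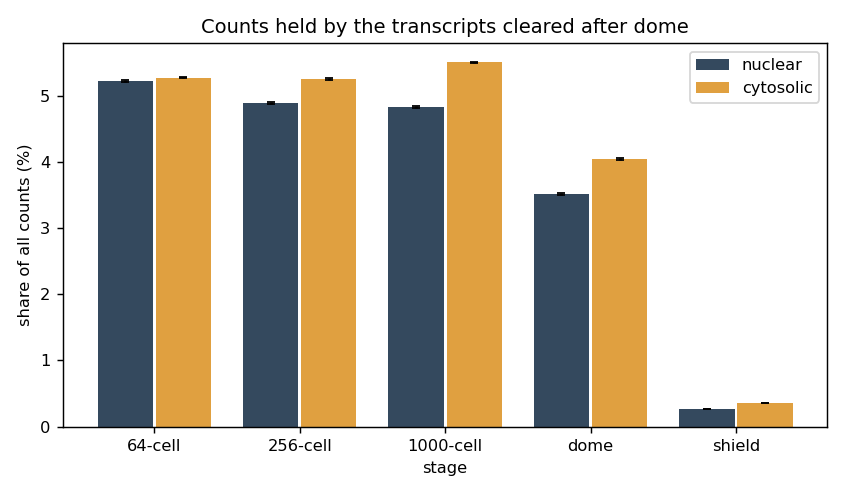
Share of all counts (%) held by the 251 transcripts cleared after dome, by stage, in nuclear (dark) and cytosolic (light) libraries. Bars are single libraries and error bars are 95% Wilson intervals. The shares lie between 4.84 and 5.50% at the 3 early stages and at 0.265% and 0.356% at shield.

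Members covered a wide range of levels. The mean early CPM of a member ran from 13.8 to 2550 with a median of 88.4, and the middle of the distribution (lower to upper quartile) lay between 34.5 and 251. Retained transcripts had a median of 115. Of the members, 48 had a mean under 30 CPM, 87 lay between 30 and 100, 58 between 100 and 300, 52 between 300 and 1000, and 6 above 1000. The rule capped the ratio of shield to early CPM, so its values by level are a description only. The median ratio of mean shield to mean early CPM was 0.043 for the 48 lowest members, 0.062, 0.065 and 0.065 for the next 3 classes, and 0.049 for the 6 highest.

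The most abundant member was ENSDART00000021620. In order of stage its nuclear CPM was 2277, 2702, 2384, 1660 and 56.5. Its cytosolic CPM in the same order was 2788, 2592, 2554, 1439 and 201. Both dome libraries lay below all 6 early ones, and both shield libraries were far below dome, the nuclear one lowest. The second most abundant, ENSDART00000015547, had nuclear CPM of 1831, 1780, 1912, 1021 and 44.0 and cytosolic CPM of 1700, 1638, 1654, 1055 and 96.9 in order of stage. It too was lower in both dome libraries than in any early library and kept 0.040 of its early mean at shield.

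**Figure D2:**
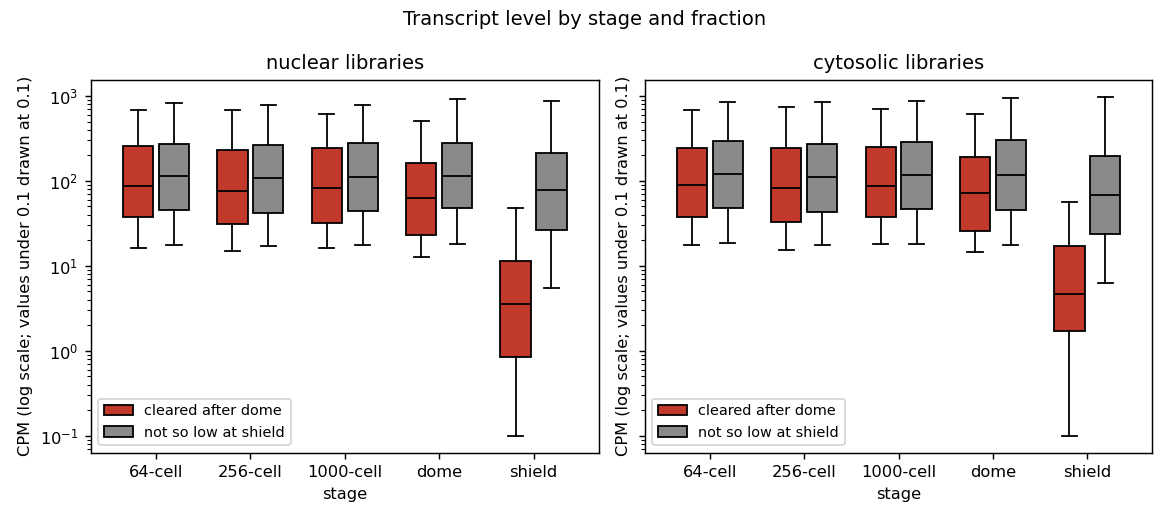
CPM (log scale) of the 251 transcripts cleared after dome (left box of each pair) and of the 3155 retained transcripts (right box) at each stage, in nuclear and cytosolic libraries. Boxes show quartiles and median over transcripts and whiskers the 5th and 95th percentiles. The median of the cleared transcripts is 63.4 CPM in the nuclear and 71.9 CPM in the cytosolic library at dome, and 3.55 and 4.63 CPM at shield.

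At shield the typical member had lost all but a small part of its early level. The median ratio of mean shield to mean early CPM was 0.060 over the 251 members (quartiles 0.036 and 0.080), against 0.644 over the retained transcripts, a difference that the rule fixed. For the 229 members with any count at shield, the mean shield level was a median of 15.98 times lower than the mean early level and a median of 12.1 times lower than the mean dome level. By size of the ratio, 115 members kept 0.0625 or more of the early mean, 83 kept between 0.0312 and 0.0625, 19 between 0.0156 and 0.0312, and 34 less than 0.0156. With TMM-scaled library sizes in place of totals only 160 transcripts met the rule, 154 of them members, because that scaling raises the CPM of the cytosolic shield library.

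A group of 22 members had no count in either shield library, and 25 had 3 counts or fewer in both. These 22 were not only weak transcripts. Their mean early CPM had a median of 31.6 and reached 535, and their 2 dome libraries together gave 218 to 8387 counts. Their dome level was a median of 0.795 times the early mean, against 0.717 for the 229 members with counts at shield. That ratio also varied with level, at a median of 0.795 over the 48 members under 30 CPM. It was 0.693, 0.725 and 0.716 for the next 3 level classes and 0.628 for the 6 highest members. The rule used the dome and shield levels, so nothing is read from the difference. Members with counts in both shield libraries above 3 numbered 181.

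Of the 22 tied at 0, ENSDART00000058276 and ENSDART00000006923 come first in the table. ENSDART00000058276 had nuclear CPM of 77.7, 76.2, 53.1, 46.6 and 0 and cytosolic CPM of 81.4, 80.9, 73.2, 57.9 and 0 in order of stage. Taking 3 counts as the floor of a shield library, its shield level was at least 136-fold lower than its early mean in nuclear RNA and at least 209-fold lower in cytosolic RNA. ENSDART00000006923 had nuclear CPM of 23.4, 27.5, 32.4, 18.7 and 0 and cytosolic CPM of 23.8, 28.7, 29.9, 19.7 and 0, with a shield level at least 54.7-fold lower in nuclear and at least 73.1-fold lower in cytosolic RNA. The most abundant of the 22, ENSDART00000125583, was singled out after its values were seen. It had 0 counts in both shield libraries, after 4213 nuclear and 4174 cytosolic counts at dome. Its shield level was at least 889-fold lower than its early mean in nuclear RNA and at least 1646-fold lower in cytosolic RNA.

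Several members were far apart between the fractions at shield. In 7 of 251 members (2.79%) 1 shield library had 0 counts and the other at least 50, against 36 of the 3155 retained transcripts (1.14%). The rule set the members' shield counts low, so nothing is read from this difference. The nuclear library was the one at 0 in 6 of the 7 members and in 26 of the 36 retained transcripts. ENSDART00000137821 had 0 nuclear and 454 cytosolic counts at shield, after 5786 nuclear and 4724 cytosolic counts at dome. ENSDART00000112288 had 0 nuclear and 177 cytosolic counts at shield, after 3147 nuclear and 3660 cytosolic counts at dome. In the opposite direction, ENSDART00000150489 had 92 nuclear and 0 cytosolic counts at shield, after 1615 nuclear and 1569 cytosolic counts at dome. ENSDART00000008682 had 610 nuclear and 76 cytosolic counts at shield, after 9433 nuclear and 9523 cytosolic counts at dome. How reads were divided among transcripts of 1 gene was not stated, and its part in these values was not tested.

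**Figure D3:**
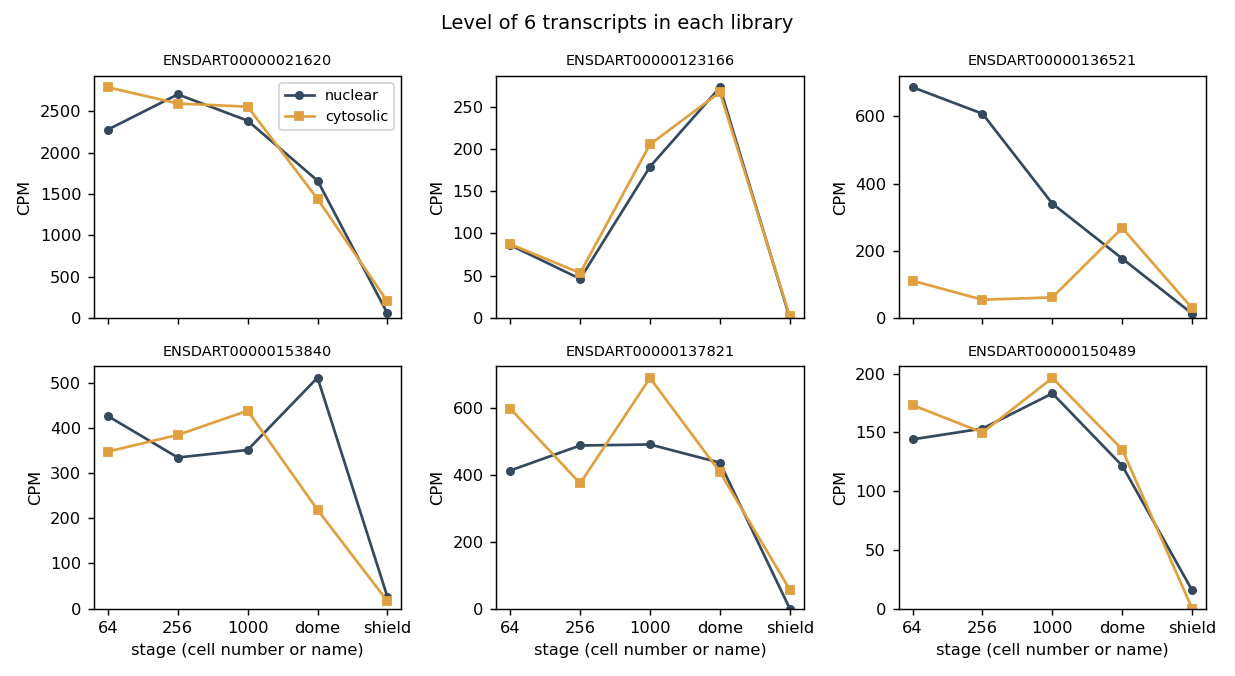
CPM of 6 members in each library by stage, nuclear (circles) and cytosolic (squares), 1 library per point. ENSDART00000136521 is higher in the nuclear library at the 3 early stages and in the cytosolic library at dome, and ENSDART00000123166 has its highest values, 273 and 267 CPM, at dome.

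The level held at dome varied among the members. The mean dome CPM was a median of 0.720 times the early mean (quartiles 0.632 and 0.850, highest 2.46), against 0.982 for the retained transcripts. In 143 members this ratio was under 0.75, in 82 between 0.75 and 1, and in 26 at 1 or above. Both dome libraries lay below all 6 early libraries in 126 of the 251 members. Among the 3940 transcripts with at least 10 CPM early this held for 27.3%. The rule bounded these same levels, so nothing is read from the difference. The members thus include many whose share of counts was already smaller at dome.

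In 3 members both dome libraries lay above all 6 early ones, against 15.3% of the 3940. These were ENSDART00000123166, ENSDART00000121522 and ENSDART00000108656. ENSDART00000123166 had the highest ratio of dome to early level, with nuclear CPM of 86.3, 46.4, 179, 273 and 0 and cytosolic CPM of 87.4, 53.3, 205, 267 and 2.25 in order of stage. Its 1000-cell libraries were already above the 4 libraries of 64-cell and 256-cell. ENSDART00000106474 was next, with nuclear CPM of 100.1, 73.3, 286, 257 and 4.40 and cytosolic CPM of 122, 44.1, 155, 263 and 12.9. Its nuclear library at 1000-cell was above both dome libraries.

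At the other end, ENSDART00000157064 had a mean dome level of 0.512 times the early mean. Its nuclear CPM was 38.9, 28.7, 25.8, 15.96 and 2.03 and its cytosolic CPM 39.5, 33.2, 22.4, 16.2 and 0.876 in order of stage. ENSDART00000026885, with a ratio of 0.513, had nuclear CPM of 36.1, 30.7, 18.9, 16.03 and 2.71 and cytosolic CPM of 39.1, 39.1, 25.9, 16.4 and 2.38. In both, the level was lower at 1000-cell than at 64-cell in each fraction, and lower again at dome.

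The thresholds cut through a continuous spread of values. The 2 members nearest the shield limit had 0.1246 and 0.1245 of the early mean in their higher shield library, and the 2 transcripts just outside had 0.1253 and 0.1254. At the dome limit the 2 members just inside had 0.5003 and 0.5012 of the early mean in their lower dome library, and the 2 just outside 0.4999 and 0.4990. The lowest early values were 10.1 and 10.2 CPM inside, and 9.53 and 9.41 CPM outside.

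**Figure D4:**
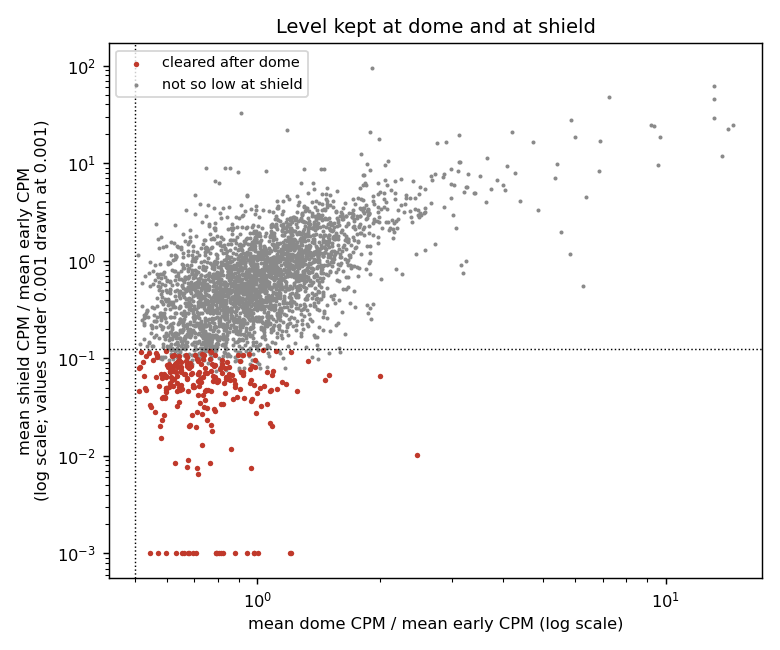
Mean dome CPM (horizontal, log scale) and mean shield CPM (vertical, log scale) of each transcript, both divided by its mean early CPM, for the 251 cleared after dome (dark) and the 3155 retained transcripts (grey). Dotted lines stand at 0.5 and 0.125, the limits that the rule sets for each library rather than for the mean. The 22 members at 0 in both shield libraries are drawn at 0.001.

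Whether members were already changing before dome was tested as a slope over 64-cell, 256-cell and 1000-cell, which the rule did not use. No member passed the threshold (0 of 251; 0% of all 9568 transcripts; smallest adjusted p-value of a member 0.711, edgeR's quasi-likelihood test). At an unadjusted p-value under 0.05 there were 12 members (4.78%), with a positive slope in 4 and a negative one in 8, against 5.59% of all transcripts (3.38% positive and 2.22% negative). Over all transcripts the smallest adjusted p-value in edgeR's test was 0.128. That test called nothing, so it does not show that the members held level before dome. DESeq2 called 1 member and 2.21% of all transcripts. The median slope of the members was -0.01 log2 units per stage, and 0.00 over all transcripts. The median coefficient of variation over the 6 early libraries was 14.7% for members and 14.8% for retained transcripts.

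The member with the smallest p-value for a fall was ENSDART00000032188, which DESeq2 called. It had 940, 787 and 617 CPM in nuclear and 934, 760 and 616 CPM in cytosolic RNA at 64-cell, 256-cell and 1000-cell. The 2 fractions gave nearly equal levels at each stage and the stages did not overlap. Its slope was -0.28 log2 units per stage (SE 0.05, edgeR adjusted p = 0.711). DESeq2 gave the same slope an adjusted p of 3.45e-06. In this fit the 2 fractions of a stage stood in for replicates, and they may come from the same embryos. The smallest p-value for a rise was that of ENSDART00000079091, with 99.1, 97.9 and 135 CPM in nuclear and 99.3, 98.99 and 152 CPM in cytosolic RNA. Its slope was 0.28 (SE 0.08, edgeR adjusted p = 0.864), and only its 1000-cell libraries stood above the others.

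The nuclear and cytosolic libraries were compared next, since the rule set the same limits for both fractions. Ratios are log2 values, nuclear over cytosolic, of CPM after TMM scaling with a prior count of 2, and compare shares of counts rather than molecules. The median ratio of the members was lower at each later stage, with 1 library per fraction at each. In order of stage, their median log2 ratio was 0.04, -0.07, -0.14, -0.21 and -0.72. Over all tested transcripts the medians in the same order were 0.00, 0.00, 0.00, 0.06 and 0.00. Over the retained transcripts the median was -0.03, -0.04, -0.05, -0.05 and -0.48. A transcript with 0 counts in both libraries of a stage has a ratio of exactly 0. Such ties hold the median of all tested transcripts at 0 at every stage but dome. The nuclear library was the higher one in 44.5, 45.1, 45.6, 53.7 and 48.3% of all tested transcripts in order of stage. Scaled by library totals alone, the members' median was -0.029, -0.11, -0.19, -0.21 and -0.24 in order of stage. Most of the last step thus came with the TMM scaling. By totals the median at shield was 0.38 over all transcripts and 0.00 over the retained transcripts.

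At dome the direction was shared by most members. Of the 251 members 42 (16.7%) had their higher dome level in the nuclear library, against 42.5% of the retained transcripts and 53.7% of all tested transcripts. The same 16.7% was found with library totals as the scale. The differences were small, with quartiles of -0.35 and -0.05, and 1 member, ENSDART00000153840, was 2-fold or more apart at dome. It was higher in the nuclear library. Of the retained transcripts 2.63% were 2-fold or more apart at dome, and of all transcripts, which include weaker ones, 26.9%. With 1 library per fraction at dome there is no replicate check. The summed share of the members, which comes from the same libraries, was also lower in the nuclear one.

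**Figure D5:**
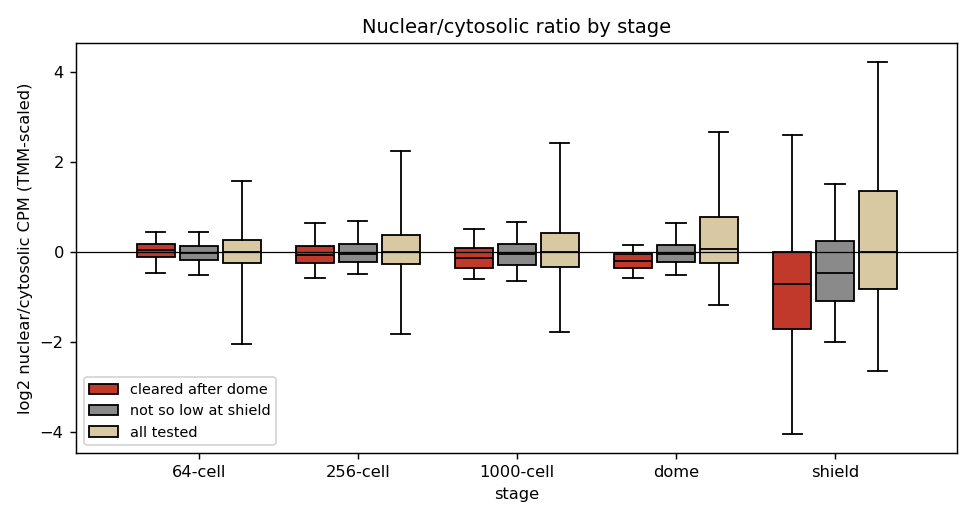
Log2 nuclear/cytosolic ratio by stage for the 251 transcripts cleared after dome (left box), the 3155 retained transcripts (middle) and all 9568 tested (right). Boxes show quartiles and median over transcripts and whiskers the 5th and 95th percentiles. The median of the cleared transcripts is -0.21 at dome and -0.72 at shield.

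No member was called as different between fractions when 64-cell, 256-cell, 1000-cell and dome were tested together with stage as a block. The count was 0 of 251 members and 0% of all 9568 transcripts, with a smallest adjusted p-value of a member of 0.826 in edgeR's quasi-likelihood test. The smallest over all transcripts in that test was 0.655. With 3 residual degrees of freedom the test called nothing, so it does not show that the fractions of a member were alike. At an unadjusted p-value under 0.05 there were 8 members (3.19%), 3 higher in nuclear and 5 higher in cytosolic RNA, against 5.59% of all transcripts (3.37% and 2.23%). DESeq2 called 2 members and 1.87% of all transcripts. The fitted log2 ratio was negative for 184 members, with a median of -0.10 against 0.03 over all transcripts. The share of negative ratios over all transcripts was not counted, so nothing is read from the 184. The nuclear library was higher at all 4 stages in 3 members (1.20%), against 7.25% of all tested and 5.61% of retained transcripts. The cytosolic library was the higher one at all 4 stages in 41 members (16.3%), against 7.66% of all tested and 13.6% of retained transcripts.

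ENSDART00000029451 was the member with the smallest p-value for a higher nuclear level. It had nuclear CPM of 595, 783, 780, 344 and 72.9 and cytosolic CPM of 444, 486, 491, 330 and 60.9 in order of stage, so the nuclear library was higher at each stage by CPM and the gap was narrow at dome. After TMM scaling its log2 ratio at shield was -0.22, so the cytosolic library was the higher one there. Its fitted log2 ratio over 64-cell to dome was 0.50 (SE 0.14, edgeR adjusted p = 0.826). ENSDART00000098563 had the smallest p-value for a higher cytosolic level, with nuclear CPM of 597, 525, 509 and 445 and cytosolic CPM of 695, 670, 655 and 597 from 64-cell to dome. Its log2 ratio was -0.30 (SE 0.08, edgeR adjusted p = 0.826), and DESeq2 called it with an adjusted p of 0.0172. The other member called by DESeq2 was ENSDART00000136521, with an adjusted p of 0.0236 and a log2 ratio of 2.17.

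Whether the ratio itself changed from the early stages to dome was tested as an interaction. No member passed (0 of 251; 0% of all 9568; smallest adjusted p-value of a member 0.561, edgeR's quasi-likelihood test). At an unadjusted p-value under 0.05 there were 8 members (3.19%), the ratio being higher at dome in 1 and lower in 7, against 5.32% of all transcripts (2.58% higher and 2.74% lower). Over all transcripts the smallest adjusted p-value in edgeR's test was 0.105. With 2 residual degrees of freedom that test called nothing, so it does not show that a member's ratio held from early to dome. DESeq2 called 1 member and 1.30% of all transcripts. The fitted change was negative for 185 of 251 members, with a median of -0.15 against 0.05 over all transcripts. The share of negative changes over all transcripts was not counted. The rule also set a lower limit for both dome libraries of a member, which limits how far its dome ratio could move. Nothing is therefore read from the 185, from the medians or from the shares at an unadjusted p-value under 0.05.

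The member that DESeq2 called was ENSDART00000136521, the one whose fractions differed most at the early stages. It had 686, 608 and 340 CPM in nuclear and 111, 54.5 and 61.5 CPM in cytosolic RNA at 64-cell, 256-cell and 1000-cell. At dome it had 177 CPM in nuclear and 268 CPM in cytosolic RNA, and at shield 13.2 CPM in nuclear and 29.4 CPM in cytosolic RNA. The nuclear level was lower at each later stage while the cytosolic level was highest at dome. Its ratio changed by -3.50 log2 units (SE 0.49, edgeR adjusted p = 0.561), and DESeq2 gave an adjusted p of 1.85e-08. The early mean of this member joins 2 unlike levels, and its shield level was 41.3 times lower than its early mean in nuclear RNA and 2.57 times lower in cytosolic RNA.

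The smallest p-value for a rise of the ratio was that of ENSDART00000153840, with 426, 334, 351, 511 and 25.9 CPM in nuclear and 347, 384, 438, 219 and 16.3 CPM in cytosolic RNA in order of stage. The dome libraries were the highest nuclear and the lowest cytosolic values before shield. The change of its ratio was 1.25 log2 units (SE 0.32, edgeR adjusted p = 0.859).

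At shield the fractions were further apart, on low counts. A nuclear level at least 2-fold above the cytosolic one was found for 23 of the 251 members (9.16%), against 10.3% of the retained and 29.5% of all tested transcripts. A cytosolic level at least 2-fold above the nuclear one was found for 106 members (42.2%), against 27.8% of the retained and 21.2% of all tested transcripts. The rule had set both shield levels of the members low. By library totals 28 members (11.2%) were nuclear by this fold, against 18.5% of the retained and 37.3% of all tested transcripts. By the same totals 81 members (32.3%) were cytosolic, against 12.7% of the retained and 13.5% of all tested transcripts. At 64-cell, 256-cell, 1000-cell and dome between 1 and 8 members were 2-fold or more apart in either direction, against 18.7, 22.1, 23.3 and 26.9% of all transcripts in order of stage. As shares, these were 1.59, 3.19, 1.99 and 0.398% of the members and 2.03, 3.36, 3.36 and 2.63% of the retained transcripts, which met the same early minimum. At dome the rule itself limited how far apart the members could be, so nothing is read from that value. Among the 141 members with at least 50 counts over both shield libraries the log2 ratio ran from -8.63 for ENSDART00000137821 to 6.29 for ENSDART00000150489, each with 0 counts in 1 library, so these extremes depend on the prior count.

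The changes at dome and at shield were set side by side as a description, since the rule used both. With each change taken from libraries that the other did not use, the dome change in nuclear RNA and the shield change in cytosolic RNA had Pearson's r = -0.12 (Spearman's rho -0.16) across the 251 members. The dome change in cytosolic and the shield change in nuclear RNA had r = -0.08 (rho -0.11). For the 3155 retained transcripts the same pairs had r = 0.55 (rho 0.55) and r = 0.37 (rho 0.34). The rule cuts the members off at both stages, which narrows the range of both changes, so nothing is read from the lower values of the members. Within a stage, the nuclear and cytosolic changes of the members had r = 0.53 at dome (rho 0.56) and r = 0.42 at shield (rho 0.32). These are descriptions across transcripts, which share their libraries and are not independent replicates.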

How the data were processed

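The authors deposited 1 table of whole-number counts per Ensembl transcript for 10 libraries of stranded, rRNA-depleted total RNA, per the labels' protocols. Trimmomatic 0.27, STAR 2.6.0a, StringTie and the build Zv9 are named in the submitters' processing notes, which give no role or order. The annotation and strand setting are not given in the sources used here. The table has 16384 lines with its header, and whether it is a whole list of transcripts is not known. Reads of models of 1 gene, near-identical copies and overlapping transcripts may be divided in ways not stated, so values for single transcripts are uncertain. Columns were matched to libraries by stage and fraction, with 0 unmatched.

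Members and comparisons were chosen with earlier results of these data known. Counts were tested with edgeR 4.0.16 (glmQLFit and glmQLFTest, TMM scaling, R 4.3.3) and DESeq2 1.42.0 as an alternative, for transcripts that reached 10 counts in 2 or more libraries. P-values of edgeR were adjusted over all 9568 by the Benjamini-Hochberg method (threshold 0.05). Those of DESeq2 were adjusted by that tool at its default settings, which can leave weak transcripts out of the adjustment, with the same threshold. The 3 fits were nuclear against cytosolic with stage as a block (8 libraries, 3 residual degrees of freedom), a slope over the early stages with fraction as a block (6 libraries, 3), and fraction by dome with stage as a block (8 libraries, 2). With 1 library per stage and fraction there are no true replicates. In the 2 fits that compare fractions the stages serve as replicates. The stage block removes the spread between stages, so those p-values rest on how the nuclear/cytosolic difference varies from stage to stage. In the fit of fraction by dome, the single dome pair is set against that variation over the 3 early stages. In the slope fit the 2 fractions of a stage stand in for replicates. With fraction as a block, its p-values rest on how the fractions differ in their course over the stages and on the departure from a straight line. Both libraries of a stage may share a pool of embryos. Standard errors are the log2 fold change divided by the square root of F. Fits were tested on simulated data. Transcripts were named by fixed ranks: lowest shield/early ratio, highest early level, smallest p per test and direction, highest and lowest dome/early ratio, and highest and lowest shield ratio between fractions. Others are named where stated. The planned gene lists were not used, as no IDs could be named.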

Additional observations from a re-analysis of the deposited data

Results flagged for a closer look

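Among 21 sets of 5 or 6 values, 3 held a value that stood apart from the rest of its set. Chance alone would flag about 1 set in 20. The first was the percentage of members 2-fold or more apart between the fractions, which was 51.4% at shield and 0.398 to 3.19% at the other 4 stages. At shield it was 50.7% over all tested and 38.1% over the retained transcripts, so the members' value there was near that of all transcripts. The lowest value was at dome, where the rule set a lower limit for both libraries. At shield alone the rule set the members' levels low, so the chance rate of flags does not apply to this set. Members had a median of 3.55 CPM in the nuclear and 4.63 CPM in the cytosolic shield library. The part of these low levels in the difference between stages was not tested. The second was ENSDART00000058276, with 53.1 CPM in the nuclear library at 1000-cell and 73.2 to 81.4 CPM in the other 5 early libraries. The third was ENSDART00000112288, with 473 CPM in the cytosolic library at 256-cell and 360 to 388 CPM in the other 5 early libraries.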

How the results depend on the processing

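The rule gave 251 members. It gave 160 transcripts with TMM-scaled sizes (154 shared), 75 with dome at least 0.75, 76 with shield at most 0.0625, 203 with an early minimum of 20 CPM, and 250 to 265 with 1 early stage left out (230 to 234 shared). A pair of alternatives was added after the data were seen: bounding the nuclear shield library alone gave 486 and the cytosolic alone 358. The 3 tests called 0 members under every edgeR alternative, stages left out included (range 0 to 0). DESeq2 called 2 for nuclear against cytosolic, 1 for the slope and 1 for the change at dome. With library totals the members' median log2 nuclear/cytosolic ratio was -0.029 at 64-cell and -0.24 at shield. By totals 30.7% of members were higher in the nuclear shield library, against 17.9% with TMM. Over all tested transcripts these shares were 59.2% by totals and 48.3% with TMM. TMM sizes moved the median log2 ratio of shield to early from -4.05 to -3.68, through the scaling of the cytosolic shield library. Of the members DESeq2 called, edgeR's adjusted p over its settings ran from 0.707 to 1 for ENSDART00000098563 and from 0.455 to 1 for ENSDART00000136521 (nuclear against cytosolic). It ran from 0.593 to 0.840 for the slope of ENSDART00000032188 and from 0.463 to 0.706 for the change of ENSDART00000136521. The 6 members named for their p-value in a test kept its sign under each alternative run for that test; other named members are described by levels and were not refitted. The sample titles give no replicate numbers to pair by. Each column header of the count table ends in a 2 after the fraction letter, which the titles do not explain. Both fractions of a stage were therefore paired by stage. Nuclear against cytosolic, 0 members were called with the stage block and 0 without it.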

Other observations

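Of the transcripts that missed the rule by 1 criterion, 3155, the retained transcripts, missed only the shield limit. Another 446 met the dome and shield limits without 10 CPM in every early library. A further 155 met the early and shield limits but not the one at dome, and only this last group was smaller than the 251 members. The 3 members with the nuclear library higher at all 4 stages to dome were ENSDART00000029451, ENSDART00000124672 and ENSDART00000132464, named after their values were seen, and the last 2 had 0 counts in both shield libraries. Across the 251 members the log2 nuclear/cytosolic ratio at 256-cell and at 1000-cell had r = 0.46 (rho 0.41), against r = 0.32 (rho 0.44) for the retained transcripts. For dome and shield the ratio had r = 0.01 (rho 0.05) among members and r = 0.15 (rho 0.17) among retained transcripts. The pair of 256-cell and 1000-cell had the highest r of all pairs of stages. Over the remaining pairs the members' r ran from -0.27 (256-cell and shield, rho -0.25) to 0.22 (64-cell and 1000-cell, rho -0.10). Among retained transcripts it ran from -0.11 (256-cell and shield) to 0.15 (dome and shield). These describe transcripts in single libraries and were not tested.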
